A study of Rattus norvegicus with 6 samples.

Results

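Matricellular proteins are secreted into the matrix around cells, where they tune how cells attach, signal and respond to growth factors rather than bearing load as collagens do. They are best known from developing bone, tendon and healing tissue, and stromal cells of mesenchymal origin are a main source of them. Fap, fibroblast activation protein, is a peptidase on the surface of activated fibroblasts that cleaves after proline, and Ptprz1 is a receptor-type tyrosine phosphatase known from glia that binds tenascins and the growth factor pleiotrophin. The genes described here are the tenascins Tnn and Tnc, Tgfbi and Postn, Sparc, the thrombospondins Thbs1 and Thbs2, Fap and Ptprz1. All probe sets of an Affymetrix RAE230A array that carry 1 of these 9 symbols alone in the platform annotation were taken, which gave 9 probe sets of 7 genes among 15923 probe sets. They stand for 7 of 10412 genes. No probe set carries Thbs1 or Thbs2 alone, so both stay without values. The 9 genes were selected on their signals in the same blood and marrow comparison, so their differences are given as a description.

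The cultures were mesenchymal stromal cells, adherent cells grown from mononuclear cells of peripheral blood or of bone marrow. There were 3 blood cultures and 3 marrow cultures, 1 of each from rats S4, S5 and S6, all at passage 2 and in the same medium. All 3 animals were rats carrying GFP, whose age, sex and strain the labels do not state. The design set blood cells against marrow cells of the same animal. Each culture was measured on 1 array, and values are log2 signals as the authors deposited them, with the base read from the values. Levels of different probe sets cannot be set against each other, since each probe set has its own brightness, and the number of arrays limits the precision.

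The blood culture of rat S5 stood apart from the other blood cultures. Over 7625 probe sets bright enough to be tested, the SD of the log2 difference between its array and the other blood arrays was 0.433 and 0.469, while those 2 arrays differed from each other by 0.248. Its array differed from the 3 marrow arrays by 0.507 to 0.556, and the blood arrays of rats S4 and S6 differed from them by 0.557 to 0.656. The marrow arrays differed among themselves by 0.304 to 0.428. Means below therefore come with each rat's own difference and with the mean without rat S5.

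Tnn, Fap and Postn had lower signals in the blood culture of every rat, with no overlap between the groups. Tgfbi and the brighter probe set of Ptprz1 were also lower in each rat, but by only 0.14 and 0.23 on the log2 scale in rat S5, and their groups overlapped. Sparc was slightly higher in blood cultures, with no overlap on 1 of its probe sets, and Tnc had no shared direction.

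**Figure D1:**
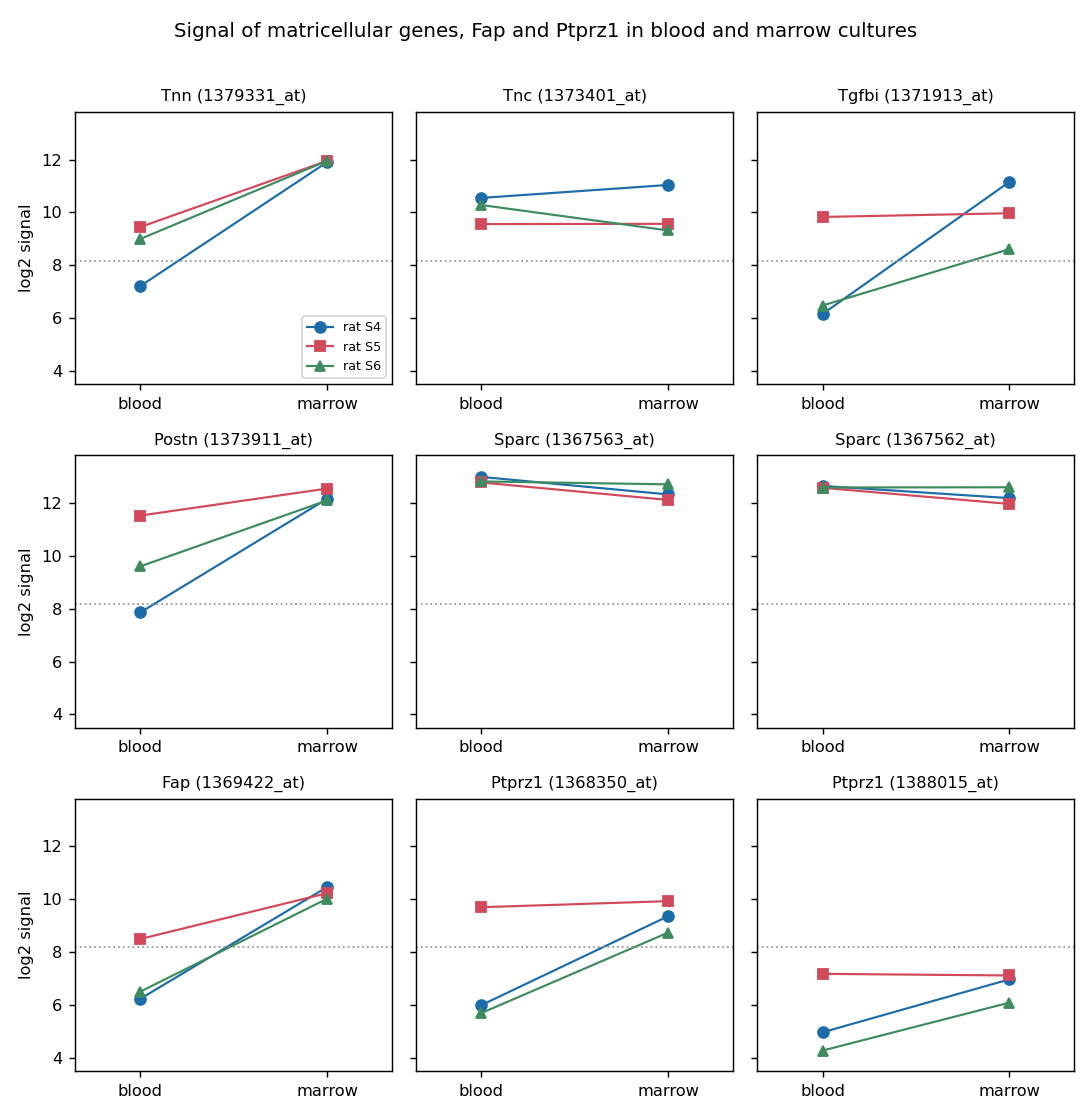
Log2 signal (vertical axes) of each probe set in blood cultures (left of each panel) and marrow cultures (right), with 1 line for each rat and the median of the whole table as a dotted line at 8.18. The blood culture of rat S5 lies at 9.83 for Tgfbi and 9.69 for Ptprz1, close to its marrow culture, while the other blood cultures of both genes lie between 5.69 and 6.48.

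Tnn encodes tenascin-N, also called tenascin-W, a tenascin of periosteum and other connective tissue niches. Its log2 signal was 7.22, 9.45 and 9.0 in the blood cultures of rats S4, S5 and S6, against 11.90, 11.95 and 11.95 in their marrow cultures. The marrow cultures were nearly identical and the blood cultures spread over 2.23 log2 units, all below them. The mean was 8.56 ± 1.18 in blood and 11.93 ± 0.03 in marrow cultures (SD, n = 3 each). The difference was -3.38 ± 0.40 (SE from limma with the rat as a term), which is 10.4-fold lower. Within rats it was -4.68, -2.50 and -2.95, and without rat S5 its mean was -3.82.

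Tnc encodes tenascin-C, a tenascin induced in wounds and around migrating cells. It had log2 signals of 10.55, 9.56 and 10.28 in blood cultures of rats S4, S5 and S6, against 11.04, 9.57 and 9.32 in marrow cultures. The groups overlapped widely, and the differences of -0.49, -0.01 and 0.96 had no common sign. The mean difference of 0.15 ± 0.27 had a 95% interval of -0.51 to 0.82, and without rat S6 it turned to -0.25. Tnn was thus lower in all 3 blood cultures and Tnc was not. Tnr, a tenascin of the nervous system, lay under the filter on low signals and differed by -0.32 in rat S4, -0.28 in rat S5 and 0.10 in rat S6.

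Tgfbi encodes a secreted adhesion protein that TGF-beta induces. Its log2 signal was 6.16, 9.83 and 6.48 in blood cultures of rats S4, S5 and S6, against 11.15, 9.97 and 8.61 in marrow cultures. Marrow cultures themselves spread over 2.54 log2 units, and the S5 blood culture was brighter than the S6 marrow culture. The differences were -4.99, -0.14 and -2.13, so the size of the effect ran from 31.8-fold lower in rat S4 to 1.10-fold lower in rat S5. The mean difference was -2.42 ± 0.82, or -3.56 without rat S5 and -1.14 without rat S4.

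Postn encodes periostin, a relative of Tgfbi with the same kind of repeated fasciclin domains, known from periosteum and tendon, where it binds tenascin-C and collagen. It had log2 signals of 7.86, 11.52 and 9.60 in blood cultures of rats S4, S5 and S6, against 12.15, 12.54 and 12.09 in marrow cultures. The marrow cultures lay within 0.45 of each other, and the S5 blood culture came within 0.57 of the lowest of them. The differences were -4.29, -1.02 and -2.49. Their mean of -2.60 ± 0.56 is 6.06-fold lower, and it was -3.39 without rat S5 and -1.76 without rat S4.

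Sparc, or osteonectin, is a calcium- and collagen-binding protein abundant in bone. On probe set 1367563_at it had log2 signals of 12.98, 12.77 and 12.81 in blood cultures of rats S4, S5 and S6, against 12.32, 12.11 and 12.70 in marrow cultures. Every blood culture was above every marrow culture, by 0.66, 0.66 and 0.11 within rats. On the other, 1367562_at, it had 12.64, 12.57 and 12.58 in blood cultures, against 12.18, 11.96 and 12.59 in marrow cultures, and rat S6 differed by -0.01. The mean differences were 0.48 ± 0.16 and 0.35 ± 0.16, or 1.39-fold and 1.28-fold. Its values on both probe sets, 11.96 to 12.98, lay near 13.31, the highest value of the table, where a signal may no longer grow with the amount of RNA. Blood cultures varied little, with an SD of 0.11 and 0.04 on the 2 probe sets, against 0.30 and 0.32 in marrow cultures.

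Tnn and Sparc, the tested genes with the most negative and the most positive mean difference here, are shown with the 250 bases before their start in the RefSeq promoter table (build GRCr8), to let a reader compare the sequences upstream of both. For Tnn these are chr13:74919790-74920039 and for Sparc chr10:40038817-40039066, both on the minus strand and wholly outside the annotated gene. Capitals mark every match on either strand to the TATA box TATAAA, the CCAAT box, the Sp1 motif GGGCGG, the AP-1 motif TGANTCA, the E-box CANNTG, the SMAD motif CAGAC or the TEAD motif GGAATG, and no matches overlap.
Tnn: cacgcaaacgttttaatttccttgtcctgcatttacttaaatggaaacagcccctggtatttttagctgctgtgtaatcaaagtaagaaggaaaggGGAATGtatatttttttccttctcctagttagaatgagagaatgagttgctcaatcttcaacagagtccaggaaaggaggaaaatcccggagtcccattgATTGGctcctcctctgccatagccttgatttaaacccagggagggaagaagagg
Sparc: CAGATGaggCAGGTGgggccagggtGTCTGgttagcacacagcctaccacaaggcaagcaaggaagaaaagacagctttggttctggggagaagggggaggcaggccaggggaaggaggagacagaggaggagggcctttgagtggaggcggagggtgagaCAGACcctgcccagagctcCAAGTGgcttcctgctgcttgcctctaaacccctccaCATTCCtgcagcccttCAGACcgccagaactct
The Tnn window held 1 CCAAT match, 54 bases before the start, and 1 GGAATG match, and had 42.4% of its bases as G or C. The Sparc window held 3 CANNTG, 3 CAGAC and 1 GGAATG match, and had 60% of its bases as G or C, beside a median of 51.2% over 33469 promoters. Of those promoters 34% held CCAAT, 65.5% held CANNTG, 42.9% held CAGAC and 12.1% held GGAATG in their 250 bases. The motif TATAAA, which 12.9% of promoters hold, the Sp1 motif, which 30.5% hold, and the AP-1 motif, which 6.34% hold, were in neither window. Such matches describe the letters only.

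Fap had log2 signals of 6.23, 8.49 and 6.50 in blood cultures of rats S4, S5 and S6, against 10.45, 10.22 and 10.01 in marrow cultures. The highest blood culture, again S5, lay 1.52 below the lowest marrow culture. The mean was 7.07 ± 1.23 in blood and 10.23 ± 0.22 in marrow cultures (SD, n = 3 each). The difference was -3.15 ± 0.44, or 8.90-fold lower, with -4.22, -1.73 and -3.51 within rats and -3.86 without rat S5.

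Ptprz1 had, on probe set 1368350_at, log2 signals of 5.99, 9.69 and 5.69 in blood cultures of rats S4, S5 and S6, against 9.35, 9.92 and 8.73 in marrow cultures. The S5 blood culture lay inside the range of the marrow cultures and the other blood cultures far below it. The differences were -3.36, -0.23 and -3.04, with a mean of -2.21 ± 0.59, or -3.20 without rat S5. The dimmer probe set, 1388015_at, had 4.96, 7.17 and 4.27 in blood cultures, against 6.96, 7.11 and 6.08 in marrow cultures. It followed the same order by rat, with differences of -2.0, 0.06 and -1.81. All its values were under the table's median, so it did not enter the fit on tested probe sets.

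**Figure D2:**
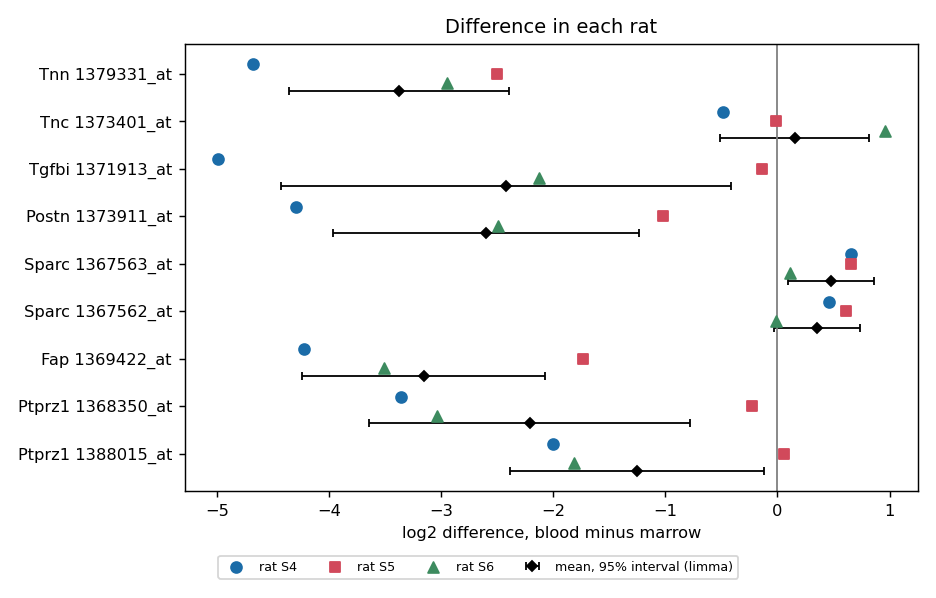
Log2 difference, blood minus marrow (horizontal axis), of each probe set in rats S4, S5 and S6, with the mean and its 95% interval from limma in black. Tnn, Fap and Postn lie below 0 in all 3 rats, Tgfbi and Ptprz1 reach -0.14 and -0.23 in rat S5, and Tnc lies on both sides of 0.

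Of the 9 probe sets 8 passed the filter, which asked for signals above 8.18, the median of the table, on all 3 arrays of a group. Tgfbi, Tnn, Postn, Fap and the brighter Ptprz1 probe set passed through marrow cultures only, which makes a lower value in blood more likely among them. Tnc and both probe sets of Sparc passed in both groups. Among the 8, 5 were lower in blood in all 3 rats, beside 19.9% of all tested probe sets, and 1 was higher in all 3, beside 15.4%, which makes 6 with 1 direction, beside 35.3%. The groups did not overlap for 3 that were lower, beside 12.1% of all tested, and for 1 that was higher, beside 7.54%. In limma with Benjamini-Hochberg adjustment over all 7625, Tnn and Fap were past an adjusted p of 0.05, beside 3.13% of all tested (1.74% lower and 1.39% higher in blood). Since the genes were chosen with this contrast known, nothing is read from these counts.

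That count changed with the rats included, and leaving out a rat leaves fewer pairs to the test. Without rat S5 it was 5, adding Postn, Tgfbi and Ptprz1, beside 422 probe sets over the whole table. Without rat S6 it was 0, beside 73, and without rat S4 no probe set of the whole table passed. Mean differences of Tnn and Fap were still -2.725 and -2.62 without rat S4, and -3.59 and -2.975 without rat S6. At an unadjusted p under 0.05 in limma, 6 probe sets of the genes described passed with all rats, beside 1158 of all 7625. Without rats S5, S6 and S4 there were 5, 5 and 3, beside 1166, 728 and 774 over the whole table. Blood signals of Tgfbi, Fap and Ptprz1 in rats S4 and S6 lay under 8.18, where no background level is known, and their differences are approximate. In rat S4 those of Tnn and Postn, 7.22 and 7.86, also lay under it, so their S4 differences are approximate too. With every value under 8.18 raised to it, the mean difference was -1.94 for Fap, -1.18 for Tgfbi and -0.65 for Ptprz1, while Tnn and Postn stood at -3.06 and -2.49. In whole cultures, fewer cells making a transcript and less of it in each cell cannot be told apart.

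The S5 difference, set against those of rats S4 and S6, was not the same share for each of these genes. Tested probe sets lower by at least 2 log2 units in both rats S4 and S6 numbered 49, or 0.643% of all, and included Tnn, Tgfbi, Postn, Fap and the brighter Ptprz1 probe set. For the other 44, the S5 difference had a median of 71.7% of the mean of rats S4 and S6, with an interquartile range of 42.4% to 91.9%. Tnn, at 65.5%, and Fap, at 44.8%, lay inside that range. Postn at 30.1%, Ptprz1 at 7.19% and Tgfbi at 3.93% lay below it. Blood signals of Fap, Ptprz1 and Tgfbi in rats S4 and S6, and of Tnn and Postn in rat S4, lay under 8.18. Their shares, and whether they meet the limit of 2 units, thus depend on values where no background level is known. Only 3 of the 44 had a share as low as those of Ptprz1 and Tgfbi, namely Lum and Dcn, which encode the small proteoglycans lumican and decorin, and Tshz2, a zinc-finger gene. Lum differed by -3.90 in rat S4, 0.20 in rat S5 and -2.09 in rat S6, and Dcn by -2.02, 0.06 and -2.19 in the same order. The limit of 2 units was chosen after the values were seen. With 1 culture of each kind per rat, a difference between rats cannot be tested.

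**Figure D3:**
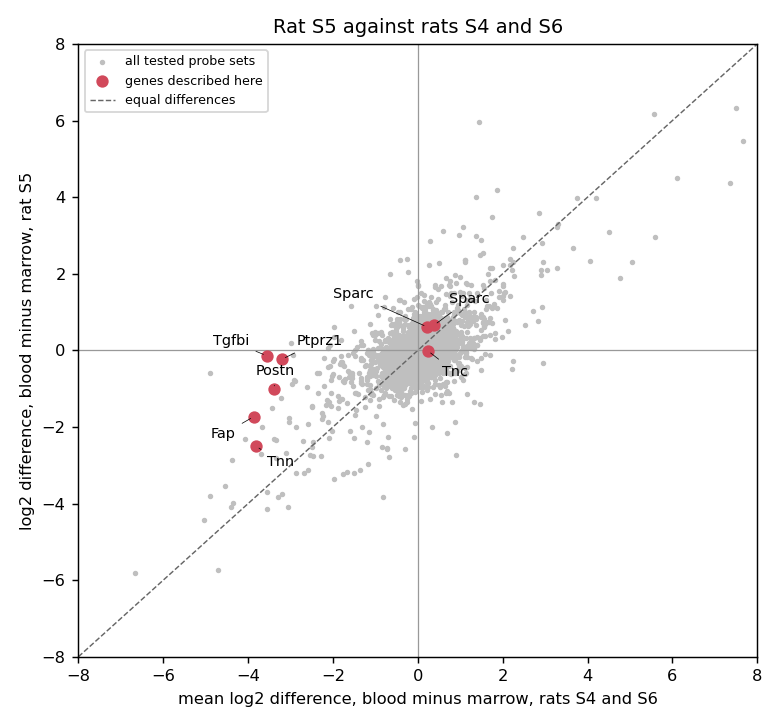
Log2 difference, blood minus marrow, in rat S5 (vertical axis) against the mean of rats S4 and S6 (horizontal axis) for the tested probe sets with values on all arrays (grey) and for the genes described here (red); the dashed line marks equal differences. Tgfbi and Ptprz1 lie near 0 on the vertical axis at -3.56 and -3.20 on the horizontal axis, and Tnn lies closest to the dashed line among the genes lower in blood.

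Profiles most like each gene were ranked by the root mean square difference between signals centred on their own mean over the 6 arrays. For Ptprz1 the nearest gene was Apln, which encodes the peptide apelin, at 0.24 log2 units. Apln was also nearest to Tgfbi, at 0.63, and S1pr1, a sphingosine phosphate receptor, was nearest to Postn, at 0.37, with Lum next at 0.40. Cdo1, cysteine dioxygenase, was nearest to Fap at 0.36, and Serping1, the complement C1 inhibitor, nearest to Tnn at 0.47. S1pr1 was second for both Fap and Tgfbi, at 0.38 and 0.67, Col18a1, a basement membrane collagen, for Tnn at 0.52, and the chemokine gene Cxcl13 for Ptprz1 at 0.52. These distances compare with SDs of 1.68 to 1.84 that the 5 genes lower in blood had over the 6 arrays. Tnc lay nearest to Myadm and C1qtnf1, at 0.32 and 0.39 beside an SD of 0.62, and Sparc nearest to Cnp and Asah1, at 0.07 and 0.08 beside an SD of 0.30.

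Relatives and partners of these genes were read from 5 lists, with the brightest tested probe set standing for each gene. Of 88 genes listed, 67 were on the array, 43 were tested, and 2 rose and 2 fell in blood cultures at an adjusted p of 0.05 in limma, beside 3.02% of the 5753 genes tested. Over all 56 tested probe sets of these genes 8 passed, beside 3.13% of all tested probe sets; besides the same 4 genes they belong to Ptprf and Smad7, whose brightest probe set did not pass. The lists were drawn up with earlier results known. Their medians, given below, compare with -0.01 for all genes tested.

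Among other matricellular and related secreted proteins, 10 of 26 were tested, with a median difference of -0.11. Fbln2, the matrix glycoprotein fibulin-2, had log2 signals of 12.63, 12.46 and 12.46 in blood cultures, against 11.46, 10.14 and 11.40 in marrow cultures, and rose by 1.52 ± 0.26 (limma adjusted p = 0.0406). Fbln5, or fibulin-5, which takes part in elastic fibre assembly, had 8.11, 8.02 and 9.77 in blood, against 10.35, 10.30 and 10.54 in marrow cultures, and fell by 1.76 ± 0.31 (limma adjusted p = 0.0437). Fbln5 entered the test through marrow cultures only, with blood values of rats S4 and S5 under 8.18, which makes a lower value in blood more likely. Neither fibulin had an overlap of groups, and both lost the call without the rat as a term or with scaled arrays. The CCN family genes Ccn5 and Ccn4 differed by -0.80 ± 0.21 and -0.58 ± 0.18, Fstl1, a secreted relative of Sparc, by 0.36 ± 0.14, and Spp1, osteopontin, by -1.06 ± 0.47, and none of the 4 passed (limma adjusted p of 0.13, 0.202, 0.294 and 0.374).

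Of 26 receptors and partners 13 were tested, with a median of -0.07, and Vldlr alone passed. Vldlr encodes a lipoprotein receptor that thrombospondins can bind. It had log2 signals of 11.86, 10.91 and 11.92 in blood, against 10.01, 9.24 and 9.75 in marrow cultures, and rose by 1.90 ± 0.14 (limma adjusted p = 0.00245). Its other 2 probe sets rose by 1.87 ± 0.16 and 1.85 ± 0.15. Within rats the differences were 1.85, 1.67 and 2.17, so the S5 blood culture took part in this difference as the others did. Without rat S4 its call was lost, as was every other. The thrombospondin receptor Cd36 differed by 0.54 ± 0.15, the collagen-binding integrin Itga1 by 0.78 ± 0.24, the procollagen peptidase Bmp1 by -0.43 ± 0.17 and the syndecan Sdc1 by 0.50 ± 0.21, and none of these passed (limma adjusted p of 0.148, 0.191, 0.304 and 0.352).

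Among ligands and relatives of Ptprz1, 5 of 12 were tested, with a median difference of -0.53, and Mdk passed. Mdk encodes midkine, a growth factor that binds Ptprz1. It had log2 signals of 7.82, 8.16 and 7.84 in blood, against 9.12, 9.45 and 8.77 in marrow cultures, and fell by 1.17 ± 0.13 (limma adjusted p = 0.0107). Its differences of -1.30, -1.29 and -0.93 were closer to each other than those of Ptprz1, and the call was lost without rat S4 or rat S6. All 3 blood values of Mdk lay under 8.18, so it too entered the test through marrow cultures only, and the size of its difference is approximate. The related ligand Ptn, pleiotrophin, picked out after its values were seen, lay under the filter and differed by -1.73 in rat S4, -0.31 in rat S5 and -1.34 in rat S6. Its signals were low, from 3.71 to 7.31. List genes under the filter did not share a direction. The integrin genes Itga8 and Itga3, from the list of receptors and partners, differed by 1.58, 0.60 and 1.68 and by 1.91, 0 and 0.81 in the same order. The adhesion molecule gene Ncam1 differed by 1.34 ± 0.37, and the receptor phosphatases Ptprf, Ptprd and Ptprs by -0.63 ± 0.17, -0.53 ± 0.16 and 0.60 ± 0.22, and none of these probe sets passed (limma adjusted p of 0.152, 0.138, 0.198 and 0.262). The other tested probe set of Ptprf did pass. It had log2 signals of 8.57, 8.94 and 8.34 in blood, against 9.88, 9.94 and 9.30 in marrow cultures, and fell by 1.09 ± 0.13 (limma adjusted p = 0.0124), so the 2 probe sets of Ptprf shared a direction but not a call.

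By the brightest probe set, none of 5 tested peptidase relatives of Fap and none of 10 tested TGF-beta genes passed in limma. The lists had median differences of 0.06 and 0.05. An unadjusted p under 0.05 in limma was found for 0 and 3 of these genes, beside 1158 of all 7625 tested probe sets. Fap, chosen with this contrast known, differed by -3.15. On their brightest probe sets its 5 tested relatives had differences between -0.07 and 0.08. Among them were Dpp9 at -0.07 ± 0.12, Dpp7 at -0.06 ± 0.13, Prep at 0.08 ± 0.14 and Apeh at 0.06 ± 0.12. A dimmer probe set of Dpp8, another relative, differed by -0.37 ± 0.13 (limma adjusted p = 0.268). Under the filter, the probe sets of Dpp4 differed by 0.13 and 0.03, those of Dpp6 by 0.44 and 0.01, and that of Prepl by 0.19. Of the TGF-beta genes Smad3, a signal mediator, differed by -0.58 ± 0.16, the ligand gene Tgfb2 by 0.81 ± 0.23, the latency protein gene Ltbp2 by 0.69 ± 0.28 and Smad2 by 0.22 ± 0.15 (limma adjusted p of 0.15, 0.171, 0.324 and 0.622). Smad7, an inhibitor of the pathway, had 2 tested probe sets that disagreed. The brighter differed by 0.02, and the dimmer had log2 signals of 10.05, 9.14 and 10.18 in blood, against 9.24, 8.22 and 8.93 in marrow cultures, and rose by 0.99 ± 0.14 (limma adjusted p of 0.976 and 0.0221). A further Smad7 probe set, under the filter, differed by 1.47 in rat S4, 0.53 in rat S5 and 0.16 in rat S6. Tgfb2 was 1.09 higher in blood in rat S4, 0.11 in rat S5 and 1.22 in rat S6, and Itga1 0.98, 0.08 and 1.28. In both, as in Tgfbi and Ptprz1 but with the other sign, the S5 cultures were nearly alike. Without rat S5, Tgfb2, Itga1, Ltbp2 and Ptprs also passed, and the lists held 8 calls, beside 422 of all 7625 tested probe sets. They held 3 without rat S6, Ncam1 among them, beside 73, and 0 without rat S4, beside 0. The list counts thus moved with the count over the whole table.

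**Figure D4:**
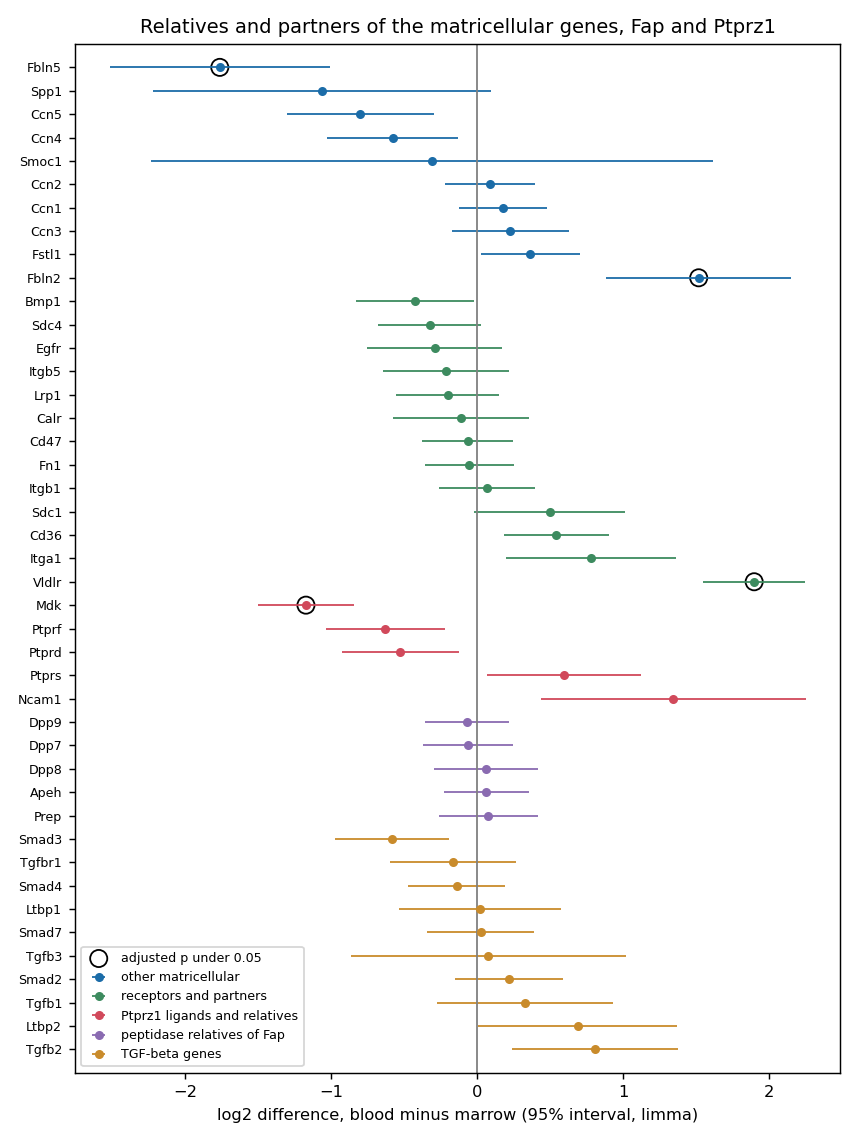
Log2 difference, blood minus marrow (horizontal axis), with its 95% interval from limma for the brightest tested probe set of the 43 tested genes of the 5 lists, coloured by list, with circles around genes past an adjusted p of 0.05. Vldlr and Fbln2 lie above 0 and Mdk and Fbln5 below it, while the 5 peptidase relatives of Fap lie between -0.07 and 0.08.

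Markers of the labelled cell type were bright in both groups. Of 12 stromal markers, all on the array, 11 were above the table's median on all 3 blood arrays and 11 on all 3 marrow arrays. Their summed signal was 15.34 to 15.41 in blood and 15.28 to 15.53 in marrow cultures on the log2 scale. Of the 11, Eng rose by 1.62 ± 0.23, and Pdgfra and Anpep fell by 1.93 ± 0.34 and 1.31 ± 0.22 (limma adjusted p of 0.0235, 0.0444 and 0.0368). Thy1, or CD90, was the exception among the 12, with 7.02, 9.42 and 7.41 in blood, against 9.38, 7.68 and 9.84 in marrow cultures. Its S5 blood culture, like those of Tnn, Tgfbi, Postn, Fap and Ptprz1, was the highest of the blood cultures.

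Markers of other cells were read in the same cultures. Of 12 macrophage markers on the array 8 were above the median on all 3 arrays of each group, and their summed log2 signal was 13.38 to 13.89 in blood and 12.88 to 13.97 in marrow cultures. Blood minus marrow, the sum was 0.99 in rat S4, -0.06 in rat S5 and -0.08 in rat S6, beside -4.68, -2.50 and -2.95 for Tnn and -4.22, -1.73 and -3.51 for Fap, and its part in those differences was not tested. The sum of 8 pan-leukocyte markers, of which 4 were above the median on all arrays of each group, was 11.87 to 12.18 in blood and 11.42 to 11.90 in marrow cultures. That of 7 smooth muscle and pericyte markers, 3 of them above the median, was 11.87 to 12.43 in blood and 11.48 to 11.79 in marrow cultures. Blood minus marrow, it was 0.68 in rat S4, 0.08 in rat S5 and 0.77 in rat S6, the same order by rat as the Tgfb2 differences, and its part in the results was not tested. The smooth muscle and pericyte markers did not share a direction. Tagln and Acta2, the brightest, differed by 0.93 ± 0.21 and 0.61 ± 0.21, and Des by -0.38 ± 0.14. Under the filter, Myh11, Cspg4, Rgs5 and Cnn1 differed by -0.70, -0.69, -0.32 and -0.01. Of 4 platelet markers only Pf4 was above the median, with sums of 11.67 to 12 in blood and 10.95 to 11.86 in marrow cultures. Of 7 endothelial markers only Flt1 was, with sums of 10.08 to 10.24 in blood and 10.05 to 10.29 in marrow cultures. None of 7 neural and glial markers, from cells known for Ptprz1, was above the median on all arrays of a group, and their sums were 10.49 to 10.61 in blood and 10.54 to 11.57 in marrow cultures. No marker was listed at 0.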

How the data were processed

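The authors deposited log2 values for 6 Affymetrix RAE230A arrays, 1 per culture, made from 10 µg of total RNA per the labels' protocols. The submitters' processing notes name GCOS and nothing else; how probes were summarised, background-corrected and normalized is not stated. The base of the logarithm was read from the values, which reach 13.31. Array medians were 8.12 to 8.22, 86 of 95538 cells were empty and stayed empty, and 94 were 0.

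No pseudocount was added to the deposited log2 values. After 57 control probe sets were removed, 7625 probe sets above 8.18 on all 3 arrays of either group were fitted with limma 3.58.1 in R 4.3.3 (lmFit, eBayes, two-sided, Benjamini-Hochberg), with the rat as a term because the design text states the pairing. A probe set with empty cells was fitted on its remaining arrays; no probe set named here had any. After group means were removed, the blood and marrow arrays of a rat correlated at -0.25 in S4, 0.31 in S5 and 0.31 in S6, and arrays of different rats at -0.46 to 0.39, so the pairing rests on the design text and not on these values. Of all probe sets 12789 had 1 symbol. Fluidics station 1 held rats S4 and S5 and station 2 rat S6, and blood was scanned before marrow in each rat, so scan order and group cannot be told apart. The fit was tested on simulated data without rat effects or a filter. Their spread was set below that of Tnn, Tgfbi, Postn, Fap and Ptprz1 in blood cultures. That test therefore does not show how the fit behaves for these genes. All 9 genes are named; from each list, the genes past the threshold and up to 4 others with the smallest p; and the 2 nearest profiles of each gene. Members and lists were chosen with earlier results of these data known. Whether the cultures of a group differ in more than the animal is not stated. The p-values rest on the spread between 3 rats, joined by limma with a prior of 4.00 degrees of freedom from all tested probe sets. With 1 culture of each kind per rat and 1 array per culture, that spread holds animal, culture and array variation together. Tables and figures used Python 3.11.15, pandas 2.3.3 and matplotlib 3.10.9. Alternatives changed the scaling, the filter, a floor or pseudocount, the rat term, the prior and the rats included.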

Additional observations from a re-analysis of the deposited data

How the results depend on the processing

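All 5 genes lower in blood kept their direction under all 14 alternatives, but most of these could not have reversed it. A changed filter, rat term, block or prior leaves the mean difference as it was. Leaving out a rat, a floor or a pseudocount cannot reverse a gene lower in every rat. Only scaled arrays and quantile normalization could have done so. The median difference over the 7 genes ran from -3.39 without rat S5 to -1.18 with values under the table's median raised to it. Tnc ran from -0.25 without rat S6 to 0.475 without rat S4, and the dim Ptprz1 probe set to 0.02 with a floor at the 25th percentile and to 0 with a floor at the median, where all its values lie under the floor. The count of 239 probe sets over the whole table was 144 with no replicate block (the rat pairing left out), 142 with arrays scaled to a common trimmed mean, 135 with quantile normalization, 139 with a filter on the mean, 151 with the fluidics station as the block and 82 with no filter, where 15866 were tested. It ran from 0 to 422 when a rat was left out, the 0 being without rat S4, where the smallest adjusted p was 0.131 and 774 probe sets had an unadjusted p below 0.05. The count of 2 among the genes described was also 2 with no replicate block. It was 1 with scaled arrays (Tnn) and 0 with quantile normalization, no filter or an intensity trend with a robust prior. In the settings with 0, there were 5, 7 and 5 with an unadjusted p under 0.05, beside 1312, 1780 and 1152 over the whole table. The count among the genes described was 0 to 5 when a rat was left out. The 4 calls among relatives and partners were 2 (Mdk and Vldlr) with no replicate block, scaled arrays, quantile normalization, the filter on the mean, the trend and robust prior, or the filter on any 3 of 6 arrays, which was chosen after seeing the data, 1 (Vldlr) with no filter, and 0 to 8 when a rat was left out. The causes were not tested. Depth cannot be given for these arrays, and below the table's median no background level is known.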
